A study of Homo sapiens with 10 samples.

Results

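Cytosolic ribosomal protein genes encode the proteins that assemble with ribosomal RNA into the large and the small subunit of the ribosome. They were taken from the deposited tables by symbol, as RPL or RPS followed by a number and, where present, the letter A or X, together with *RPSA*, *RPLP0*, *RPLP1* and *RPLP2*. This gave 77 of 36687 gene rows, 46 of the large and 31 of the small subunit. All 77 passed the filter on low counts, and 72 had more than 1000 counts in every library.

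RNA was sequenced from MDA-MB-231 cells, an established triple-negative breast cancer line of the basal B type with wild-type genotype in the labels. Dasatinib, an inhibitor of SRC family and ABL kinases, was given for 6, 12, 24 or 48 h, and the 0 h cells are titled sham, with 2 biological replicates at each time and 10 libraries in all. The dose, 100 nM, comes from the study's text, since the labels state none. The treatment field of the 0 h samples also names the drug, and they were used here as the untreated group. No untreated cells of 6, 12, 24 or 48 h were analysed here, so time in culture and dasatinib cannot be told apart in any difference from 0 h. Whether the 2 replicates of a time were separate cultures is not described further, so p-values measure the spread between these libraries.

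Ribosomal protein mRNAs are among the most abundant and shortest coding mRNAs of a growing cell, and their proteins are used in nearly equal numbers per ribosome. Most of them begin with a cytosine and a run of pyrimidines, the terminal oligopyrimidine start, through which mTORC1 and the RNA-binding protein LARP1 regulate their translation and stability. Unused ribosomal proteins are degraded, and RPL5 and RPL11 together with 5S ribosomal RNA can bind MDM2.

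The start sites are shown because this run is the shared sequence feature of the genes and is independent of how they were chosen. A RefSeq start (GRCh38.p14) was listed for 62 of the 77 genes. A C at the first transcribed base followed by at least 4 further C or T bases was found at a listed start of 46 of the 62 (74.2%) and of 942 of 15781 other protein-coding genes (5.97%). Where the run could begin up to 5 bases to either side, the shares were 85.5% and 27.8%. Only the transcribed strand was read, and genes with several listed starts counted if any of them matched. The lines below give 10 bases before and 20 bases from the first transcribed base on, 5′ to 3′, with the run from that base in capitals. The first 5 genes were lower at 48 h, with and without the run at that base. The next 3 are those with a fold change above 0 at 48 h, and *RPS29* was higher at 24 h. The windows lie at chr17:8383174-8383203 (minus strand, *RPL26*), chr3:39406710-39406739 (plus, *RPSA*), chr12:120201092-120201121 (minus, *RPLP0*), chr3:101686699-101686728 (minus, *RPL24*) and chr15:66504836-66504865 (minus, *RPL4*). Those of the other genes lie at chr1:153990752-153990781 (plus, *RPS27*), chrX:119791611-119791640 (minus, *RPL39*), chrX:72277229-72277258 (minus, *RPS4X*) and chr14:49598691-49598720 (minus, *RPS29*).
RPL26: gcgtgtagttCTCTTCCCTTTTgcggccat
RPSA: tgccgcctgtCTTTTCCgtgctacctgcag
RPLP0: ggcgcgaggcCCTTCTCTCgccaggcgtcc
RPL24: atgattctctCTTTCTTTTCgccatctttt
RPL4: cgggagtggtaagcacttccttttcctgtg
RPS27: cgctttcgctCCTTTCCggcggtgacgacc
RPL39: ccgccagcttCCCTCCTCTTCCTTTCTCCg
RPS4X: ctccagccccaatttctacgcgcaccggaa
RPS29: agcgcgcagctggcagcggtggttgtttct
Among these 9 windows the run began at the first base in *RPL26*, *RPSA*, *RPLP0*, *RPL24*, *RPS27* and *RPL39*, and did not in *RPL4*, *RPS4X* and *RPS29*. *RPL4* had such a run within the 5 bases allowed to either side, and *RPS4X* and *RPS29* did not. Of the genes with a listed start, 8 of the 13 that were lower at 48 h and 38 of the 49 others had the run at the first base.

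One library, 12 h replicate 1, differed from the rest. In log2 CPM (counts relative to library size, scaled by TMM, edgeR's library scaling) it correlated with its most similar library at 0.943, and every other library did so at 0.988 to 0.995. All 77 ribosomal protein genes were lower in it than in replicate 2 of 12 h, with a median log2 difference of -0.80 and a range from -2.19 to -0.06. The median difference of other genes went from -0.57 for coding lengths up to 500 nucleotides to 0.43 above 4000 nucleotides, and the ribosomal protein genes have a median coding length of 456 nucleotides against 1413 for all genes tested. Each comparison of the ribosomal protein genes as a group is therefore given with all 10 libraries and without this one. The other gene lists are given with all 10 libraries only. Total counts were 40942913 to 49133774 per library. The markers of the line, *VIM*, *CD44* and *AXL*, had 10283 or more counts in every library, while *ESR1*, *PGR*, *CDH1*, *GRHL2* and the leukocyte gene *PTPRC* had 25 or fewer.

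**Figure D1:**
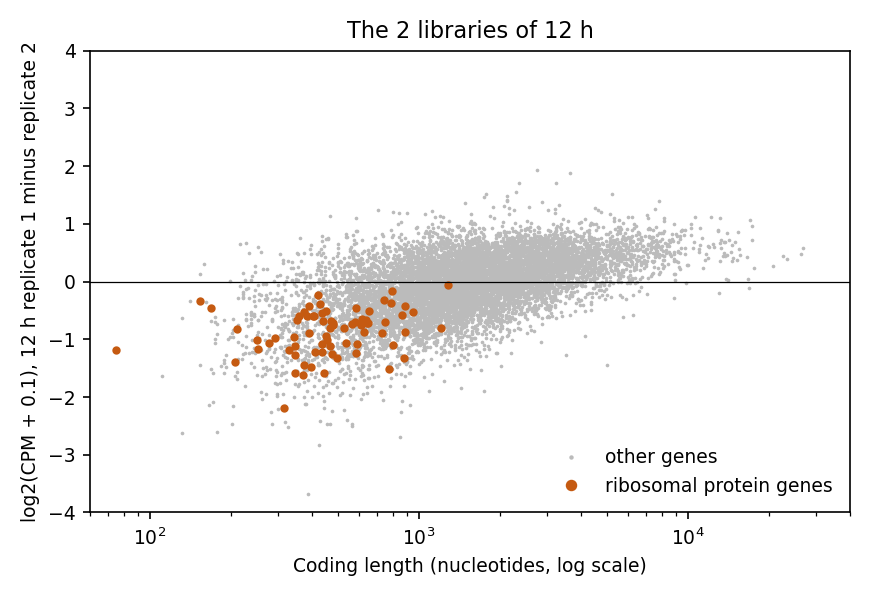
Each point is a gene with a mean of at least 10 CPM. The x axis is coding length in nucleotides on a log scale and the y axis the difference between the 2 libraries of 12 h in log2(CPM + 0.1). The ribosomal protein genes (73 drawn, orange) sit at short lengths and below 0, and other genes (grey) rise from below to above 0 with length.

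At 0 h the ribosomal protein genes took 6.62% of the counts in each of the 2 libraries. The 6 h libraries held 7.34% and 7.41%, the 12 h libraries 4.20% in replicate 1 and 7.10% in replicate 2, the 24 h libraries 6.35% and 6.72%, and the 48 h libraries 5.38% and 5.19%. Both 6 h libraries were thus above and both 48 h libraries below the 0 h libraries, and the 12 h libraries fell on either side of them. The means were 6.62% ± 0.00372 (SD, n = 2) at 0 h, 7.38% ± 0.0473 at 6 h and 5.29% ± 0.13 at 48 h. With 2 libraries against 2 an exact permutation test cannot go below 0.33, so these shares were not tested. The large subunit went from 4.24% and 4.27% at 0 h to 3.53% and 3.42% at 48 h, and the small subunit from 2.38% and 2.35% to 1.85% and 1.77%. Shares and CPM are relative to the other RNA of a library, so less ribosomal protein mRNA per cell, more of other RNA and fewer expressing cells cannot be told apart.

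**Figure D2:**
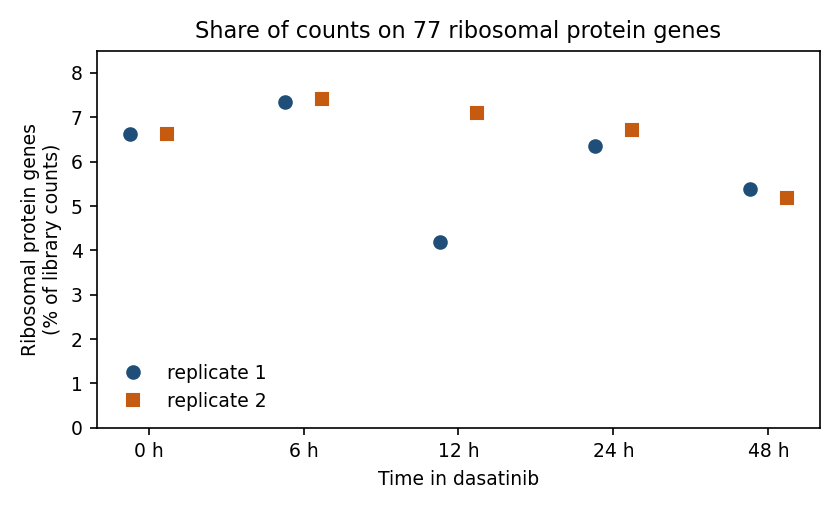
Percent of a library's counts on the 77 ribosomal protein genes (y axis) by hours in dasatinib (x axis), with circles for replicate 1 and squares for replicate 2. The 6 h libraries (7.34% and 7.41%) lie highest, 12 h replicate 1 (4.20%) lowest, and the 48 h libraries lie at 5.38% and 5.19%.

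The ribosomal protein genes spanned a wide range of mRNA levels. In the deposited TPM (a read count scaled per transcript length and per library) the 0 h level had a median of 835 and was highest for *RPS12* (5130), *RPS2* (3700) and *RPLP0* (3180). Among the lowest were *RPL36A* (4.13), *RPS10* (6.29) and *RPL17* (7.84). With the 4 members of fewer than 300 counts in every library set aside, *RPS15A* (32.1) was the lowest of the other 73, 160-fold below *RPS12*. Scaled per kilobase of coding sequence in GENCODE instead, the 0 h CPM was highest for *RPL41* (6100) and lowest of the same 73 for *RPL26* (109), a 55.9-fold range. The order of levels therefore depended on the length used. The deposited TPM gives gene lengths only relative to each other. They were scaled here so that the typical gene matched its GENCODE canonical transcript. On that scale the median length of these genes was 2123 nucleotides against 785 for the canonical transcript, and 6958 against 295 for *RPS29*.

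*RPL17*, *RPS10* and *RPL36A* had fewer than 300 counts in every library, where 72 members had more than 1000. In GENCODE 96.9%, 84.0% and 43.8% of the exon bases of *RPL17*, *RPS10* and *RPL36A* are shared with the readthrough genes *RPL17-C18orf32*, *RPS10-NUDT3* and *RPL36A-HNRNPH2*, which have 0 counts in every library. For *RPL26* 65.3% of the exon bases overlap other annotated genes. How reads shared between genes or with the many processed pseudogenes of this family were assigned was not stated. The levels of these 4 genes are therefore uncertain, and those of other members may be affected. Exon bases of *RPL38* (59.0%), *RPL10* (53.7%) and *RPL30* (51.4%) overlap genes of the opposite strand, and the strand setting is not given. Pseudogene rows summed to 0.444 to 0.739 counts per 100 counts on the ribosomal protein genes.

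At 48 h the ribosomal protein genes were lower than at 0 h as a group. The log2 fold change was below 0 for 74 of 77, with a median of -0.37 against about 0 for all genes tested, and the median was -0.37 in replicate 1 and -0.41 in replicate 2 taken alone. By edgeR's quasi-likelihood test with Benjamini-Hochberg adjustment over 15727 genes, 18 of 77 (23.4%) were lower and 0 higher, where 16.3% of all genes were lower and 16.0% higher. No member was higher at an unadjusted p under 0.05 or by DESeq2 or limma either. Both 48 h libraries were below both 0 h libraries for 64 members, as for 37.3% of all genes. Without 12 h replicate 1 the spread of all 5 groups was estimated as smaller, and 60 of 77 (77.9%) were lower against 26.0% of 16555 genes, with the median still -0.37. The 18 genes were among these. Leaving out 12 h replicate 2 in place of replicate 1 raised the count as much. The rise therefore did not depend on which library of 12 h was dropped.

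**Figure D3:**
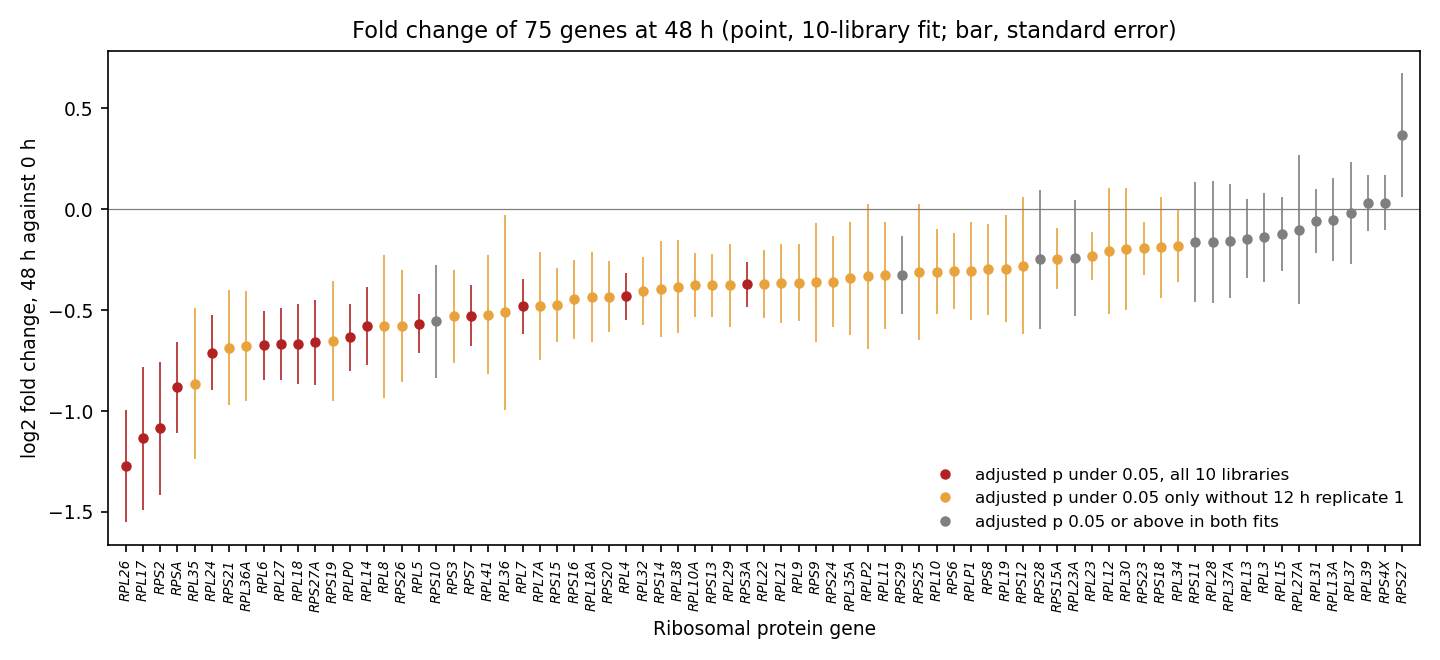
Log2 fold change at 48 h against 0 h (y axis) of 75 of the 77 genes (x axis, sorted), from the fit to all 10 libraries, with bars for the standard error. Red marks the 16 drawn genes that passed with all libraries. Orange marks those that passed without 12 h replicate 1 but not with all libraries, and grey those that passed in neither of these fits. All but 3 points (*RPS27*, *RPS4X* and *RPL39*) lie below 0, and *RPL26* has the lowest of those drawn.

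The change at 48 h moved with transcript length across the whole data set. Other genes with coding lengths up to 500 nucleotides had a median log2 fold change of -0.22 (1094 genes) and those above 4000 nucleotides 0.23 (1067 genes). The ribosomal protein genes were at -0.36 in the shortest class (47 genes) and at -0.46 between 500 and 1000 nucleotides (28 genes), where the other 3053 genes were at -0.11. When the trend of each library with the length and GC content of transcripts was removed, the members' median was -0.15, with 14 lower and 3 higher against 20.7% and 20.1% of all genes. Of the 18 genes, *RPL5*, *RPL7*, *RPL14*, *RPS3A* and *RPS7* no longer passed (edgeR adjusted p = 0.0588 to 0.877), and *RPL35* passed in addition. Without 12 h replicate 1 and with the trend removed, 32 (41.6%) were lower against 26.1% of all genes and 4 were higher against 25.2%. With coding length in place of transcript length and all libraries, 29 were lower and 1 higher at a median of -0.21, against 21.3% and 19.0% of all genes. The size of the change thus depended on the treatment of length, and the share of members called lower fell below that of all genes in 1 of these fits.

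The proteins of the 5S particle and of the stalk, where translation factors dock, had members that were lower and members that did not pass with all libraries. *RPL5* had 2340 and 2370 CPM at 0 h and 1570 and 1610 at 48 h (log2 fold change -0.57, SE 0.15, edgeR adjusted p = 0.0147). *RPL11*, its partner, had 566 and 660 CPM at 0 h and 510 and 466 at 48 h (-0.33, SE 0.27, adjusted p = 0.385 by edgeR). The 48 h libraries lay below the 0 h libraries for both genes, and *RPL11* passed without 12 h replicate 1 (edgeR adjusted p = 0.00137). *RPLP0*, the base of the stalk, had 3780 and 3650 CPM at 0 h and 2440 and 2340 at 48 h (-0.64, SE 0.17, edgeR adjusted p = 0.0152). The other stalk proteins *RPLP1*, *RPLP2* and *RPL12* had log2 fold changes of -0.30, -0.33 and -0.21, did not pass with all libraries and passed without 12 h replicate 1.

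Around the exit tunnel of the large subunit, through which the new chain leaves, 3 of 9 genes were lower, where 16.3% of all genes were. *RPL26* had 48.4 and 46.5 CPM at 0 h, 79.2 and 89.7 at 6 h, 37.5 and 79.7 at 12 h, 71.5 and 63.4 at 24 h, with 21.4 and 17.8 at 48 h. Its 48 h libraries were the lowest of all 10, and the 6 h libraries and 12 h replicate 2 the highest. It fell by 1.27 on the log2 scale at 48 h (SE 0.28, edgeR adjusted p = 0.0061), and by 0.95 with the length trend removed (edgeR adjusted p = 0.000135). *RPL4*, one of the longest members, fell by 0.43 (SE 0.12, edgeR adjusted p = 0.0185), and *RPL17*, whose level is uncertain, by 1.14, with 110 and 128 counts at 48 h against 216 and 268. *RPL39*, a small protein that lines the tunnel, had 338 and 319 CPM at 0 h and 360 and 310 at 48 h, with overlapping libraries.

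On the small subunit, 2 of 8 genes whose proteins lie along the path of the mRNA were lower, *RPS2* among them, where 16.3% of all genes were. *RPS2* had 2350 and 2820 CPM at 0 h and 1330 and 1110 at 48 h (log2 fold change -1.09, SE 0.33, edgeR adjusted p = 0.0294). *RPSA*, which is also known as a laminin receptor precursor, had 2350 and 2300 CPM at 0 h, 2240 and 2380 at 6 h, 2010 and 1910 at 24 h, with 1280 and 1250 at 48 h (-0.88, SE 0.23, edgeR adjusted p = 0.0136). The 48 h libraries of both genes did not overlap any 0 h, 6 h or 24 h library. *RPS6*, the substrate of the S6 kinases, had 913 and 895 CPM at 0 h and 714 and 747 at 48 h (-0.31, SE 0.19, edgeR adjusted p = 0.247), and passed without 12 h replicate 1 (edgeR adjusted p = 0.000587).

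*RPS27*, *RPS4X* and *RPL39* were the members with a log2 fold change above 0 at 48 h. *RPS27* had 430 and 315 CPM at 0 h and 519 and 442 at 48 h (0.37, SE 0.31, edgeR adjusted p = 0.399). *RPS4X* had 1220 and 1250 CPM at 0 h and 1240 and 1280 at 48 h (0.03, SE 0.14, edgeR adjusted p = 0.886). Neither passed with or without 12 h replicate 1. With the length trend removed *RPS27*, *RPS4X* and *RPL31* were higher, *RPS27* by 0.62 (edgeR adjusted p = 0.00284).

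**Figure D4:**
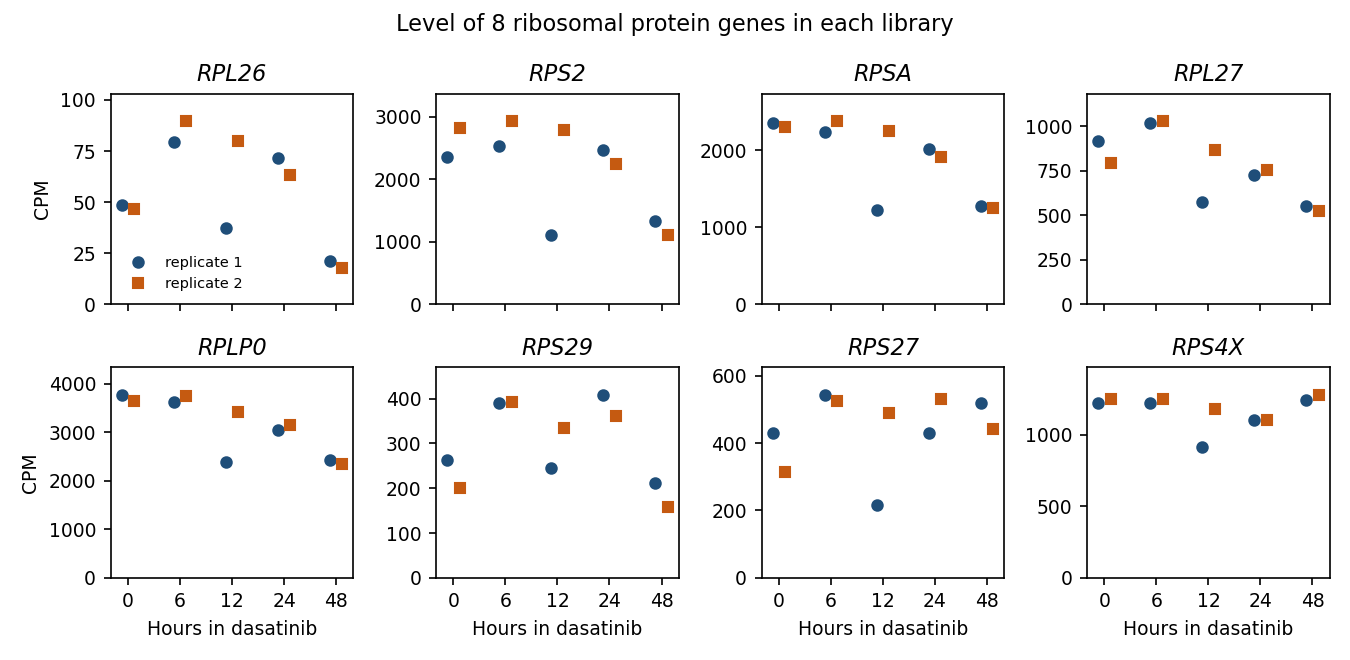
CPM (y axis, each panel from 0) of 8 ribosomal protein genes in each library by hours in dasatinib (x axis), with circles for replicate 1 and squares for replicate 2. *RPL26*, *RPS2*, *RPSA*, *RPL27* and *RPLP0* have both 48 h libraries below both 0 h libraries, *RPS29* is highest at 6 and 24 h, and the 48 h libraries of *RPS27* and *RPS4X* are not below those of 0 h.

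By subunit, 11 of 46 large-subunit genes and 7 of 31 small-subunit genes were lower at 48 h against 16.3% of all genes, with medians of -0.37 and -0.38. Of 14 genes listed here among those whose mutations cause Diamond-Blackfan anaemia, an inherited failure of red cell production, 6 were lower. Of all genes 16.3% were lower. The median of the 14 was -0.56, and *RPL5*, *RPL26* and *RPL27* were among the 6. This list may not hold every such gene, so the count describes these 14 alone. Once the length trend was removed 4 were lower and 1 higher at a median of -0.26, and *RPL5* did not pass. *RPL6*, *RPL7*, *RPL14*, *RPL18*, *RPL24*, *RPS3A*, *RPS7* and *RPS27A* were also among the 18 and are named here after their values were seen.

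At 6 h the ribosomal protein genes lay slightly above 0 h. The median log2 fold change was 0.15, positive for 62 of 77, and 0.11 and 0.19 in the replicates taken alone. With all libraries edgeR called 0 members in either direction (1.24% of all genes were higher and 1.49% lower), and DESeq2 called *RPL26* and *RPS29* higher. At an unadjusted edgeR p under 0.05, 4 members were higher and 1 lower, against 7.87% and 7.79% of all genes. Without 12 h replicate 1, 26 of 77 (33.8%) were higher and 2 lower, against 9.89% and 9.47% of all genes. With the length trend removed as well, 14 were higher and 2 lower at a median of 0.05, against 7.76% and 9.18%. With the trend removed from all 10 libraries 2 were higher and 0 lower, against 2.43% and 3.31%.

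Fold changes at 6 h were related to coding length more than to transcript length. Over the 77 genes the fold change at 6 h had a Spearman correlation of -0.55 with coding length, and at 24 h of -0.50, and with the length of the GENCODE canonical transcript of -0.19 and -0.09, a description over genes that share the same libraries. *RPL41*, the shortest, with 75 coding nucleotides, had 492 and 423 CPM at 0 h and 649 and 702 at 6 h, and without 12 h replicate 1 its log2 fold change was 0.57 (SE 0.09, edgeR adjusted p = 4.44e-05). *RPL26* went from 48.4 and 46.5 to 79.2 and 89.7 CPM, a log2 fold change of 0.84 without 12 h replicate 1 (SE 0.10, edgeR adjusted p = 2.69e-07) and of 0.83 with all libraries (edgeR adjusted p = 0.167). *RPL23A* (-0.47) and *RPS23* (-0.34) were the 2 lower genes at 6 h without 12 h replicate 1. Among other genes with coding lengths up to 500 nucleotides the median at 6 h was 0.11, where the members were at 0.22.

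At 12 h the comparison rested on which library was kept. With both, the median was -0.34 and only *RPL22*, a protein of the large subunit that cells can lack, was lower (0 members were higher, also at an unadjusted p under 0.05 and by DESeq2 and limma), against 3.93% of all genes higher and 3.22% lower. *RPL22* had 133 and 134 CPM at 0 h and 68.1 and 103 at 12 h (-0.64, SE 0.17, edgeR adjusted p = 0.0476), and without 12 h replicate 1 its log2 fold change was -0.36 (edgeR adjusted p = 0.00605). Without replicate 1 the median was 0.04, with 5 members higher and 1 lower against 8.26% and 8.61% of all genes. With the length trend removed from all libraries 3 were higher and 1 (*RPL22*) lower against 6.52% and 7.11%. Without replicate 2 it was -0.79, with 73 lower and 0 higher against 24.8% and 20.1% of all genes, and the only 12 h library was then the one in which short genes were low in general.

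At 24 h the median was -0.14, with 54 of 77 below 0, and 1 member was higher and 1 lower against 9.73% and 10.2% of all genes. *RPS29*, one of the shortest small-subunit genes, had 263 and 200 CPM at 0 h, 391 and 393 at 6 h, 409 and 362 at 24 h, with 212 and 157 at 48 h. It was higher at 24 h (0.74, SE 0.20, edgeR adjusted p = 0.0242), but did not pass with the length trend removed (edgeR adjusted p = 0.159). *RPS23*, near the decoding site, had 188 and 211 CPM at 0 h and 143 and 142 at 24 h (-0.48, SE 0.13, edgeR adjusted p = 0.0287), and at 48 h it had 177 and 171. Without 12 h replicate 1, 5 were higher and 30 lower against 19.5% and 20.8% of all genes, and with the length trend removed from all libraries 1 was higher and 12 were lower at a median of -0.13, against 13.7% and 16.3%. The 24 h libraries therefore lay between those of 6 h and 48 h for the group as a whole.

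Taking replicate 2 alone for 12 h, 55 of the 77 genes had their highest mean CPM at 6 h and 14 at 0 h, and 70 had their lowest at 48 h. The matching counts over all genes are not given here. Other genes with coding lengths up to 500 nucleotides also had a median log2 fold change of 0.11 at 6 h and -0.22 at 48 h. Set against 6 h, 31 of 77 (40.3%) were lower and 0 higher at 48 h (also at an unadjusted p under 0.05 and by DESeq2 and limma), at a median of -0.52, against 17.0% of all genes lower and 16.2% higher. This comparison shares its 48 h libraries with the comparison against 0 h. The count was 70 (90.9%) without 12 h replicate 1, against 26.2% of all genes. With the length trend removed 24 were lower and 2 higher at a median of -0.28, against 20.2% and 19.6%. *RPL26* fell by 2.10 (SE 0.28, edgeR adjusted p = 0.000357), *RPS29* by 1.09 (SE 0.20, edgeR adjusted p = 0.00207) and *RPL27* by 0.92 (SE 0.18, edgeR adjusted p = 0.00293). *RPL27*, a large-subunit gene, had 1020 and 1030 CPM at 6 h and 551 and 526 at 48 h. *RPS29* did not pass with the length trend removed (edgeR adjusted p = 0.0784).

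**Figure D5:**
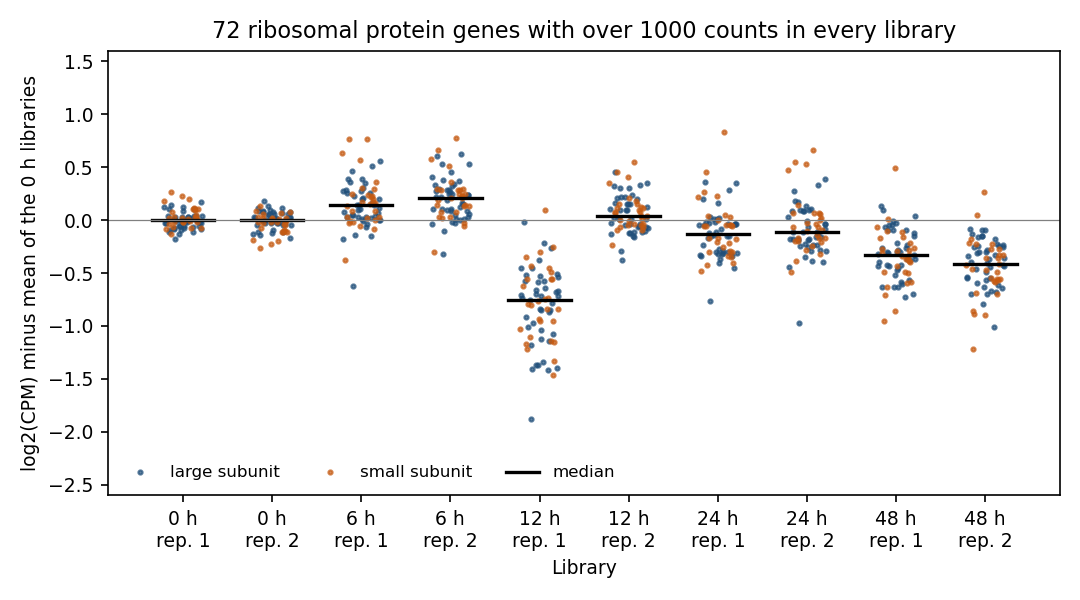
Log2 CPM of the 72 ribosomal protein genes with over 1000 counts in every library, minus each gene's mean over the 0 h libraries (y axis), by library (x axis). Points are genes of the large (blue) or small (orange) subunit and black lines are medians, which lie at 0.14 and 0.21 at 6 h, -0.76 and 0.04 at 12 h, -0.13 and -0.11 at 24 h, with -0.32 and -0.41 at 48 h.

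*FAU*, whose product is a ribosomal protein made as a fusion and whose symbol the rule does not take, was also lower at 48 h. It had 191 and 191 CPM at 0 h and 105 and 92.5 at 48 h (-0.95, SE 0.23, edgeR adjusted p = 0.00941).

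Of the 8 paralogs, genes that resemble a ribosomal protein gene and can share reads with it, 4 of 7 tested were lower at 48 h. Of all genes 16.3% were lower. *RPL22L1* had 53.6 and 53.0 CPM at 0 h, 28.3 and 29.2 at 24 h, with 26.4 and 29.8 at 48 h (-0.93, SE 0.16, edgeR adjusted p = 0.00169), while its parent *RPL22* had a log2 fold change of -0.37 and did not pass. *RPL7L1*, a ribosome assembly factor, fell by 0.66 (edgeR adjusted p = 0.000999), *RPL26L1* by 0.99 and *RPL39L* by 0.82 (edgeR adjusted p = 0.00982 and 0.0062), of which *RPL39L* did not pass with the length trend removed (edgeR adjusted p = 0.178). *RPL7*, the gene *RPL7L1* resembles, fell by 0.48 (SE 0.14, edgeR adjusted p = 0.0218). *RPS27L* (-0.34) and *RPL36AL* (-0.22) did not pass. *RPL3L* had 12 or fewer counts in every library and *RPL10L* did not pass the filter, while their parents *RPL3* and *RPL10* had log2 fold changes of -0.14 and -0.31 that did not pass.

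Other mRNAs with an oligopyrimidine start, which encode elongation and initiation factors and partners of the ribosome, were lower in 8 and higher in 1 of 18 tested at 48 h. Of all genes 16.3% were lower and 16.0% higher, and the median of the list was -0.35. *EEF1G*, the 19th of the list, had 0 counts in every library. *NPM1*, a nucleolar chaperone, had 3270 and 3350 CPM at 0 h and 1470 and 1500 at 48 h (-1.16, SE 0.12, edgeR adjusted p = 8.96e-05). *PABPC1*, the poly(A)-binding protein, fell by 0.58 and *NAP1L1* by 0.43 (edgeR adjusted p = 0.00683 and 0.0223). *TPT1* rose by 0.41 (edgeR adjusted p = 0.0471), from 787 and 820 to 1040 and 1100 CPM. With the length trend removed 7 were lower and 0 higher, against 20.7% and 20.1% of all genes, at a median of -0.32. *TPT1* then did not pass (edgeR adjusted p = 0.0635).

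Chaperones that load ribosomal proteins were lower in 7 of 10 at 48 h, at a median of -0.71, and in 5 of 10 at 24 h. Of all genes 16.3% were lower at 48 h and 10.2% at 24 h. *GRWD1* had 147 and 150 CPM at 0 h, 75.0 and 74.9 at 24 h, with 70.7 and 65.5 at 48 h (-1.12, SE 0.12, edgeR adjusted p = 7.62e-05). *RPF2*, which brings the 5S particle to the ribosome, fell by 0.88 and *BCCIP* by 1.03 (edgeR adjusted p = 0.000189 and 0.000343). Of 16 genes of mTORC1 and its control of these mRNAs, 3 were higher and 7 lower at 48 h, against 16.0% and 16.3% of all genes. *DDIT4*, an inhibitor of mTORC1, had 15.2 and 18.5 CPM at 0 h, 110 and 112 at 6 h, with 78.5 and 71.2 at 48 h (2.15 at 48 h, SE 0.19, edgeR adjusted p = 3.63e-05). *TSC2* and *TSC1*, which also restrain mTORC1, rose by 0.65 and 0.41, and *EIF4E*, *MLST8* and *LARP1* fell by 0.63, 0.82 and 0.46 (each with an edgeR adjusted p of 0.0191 or below). *TSC1* did not pass with the length trend removed (edgeR adjusted p = 0.101).

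The proteins of the mitochondrial ribosome, encoded in the nucleus by another gene family, were lower in 39 of 77 tested at 48 h and higher in 0. Of all genes 16.3% were lower and 16.0% higher, and the median of this list was -0.59. *MRPL37* fell by 1.05, *MRPL3* by 0.89 and *MRPS2* by 1.19 (each with an edgeR adjusted p of 0.000259 or below). With the length trend removed 38 were lower, against 20.7% of all genes, at a median of -0.37. Short nuclear-encoded mRNAs of the respiratory chain, with a median coding length of 273 nucleotides, were lower in 2 of 33, where 16.3% of all genes were. These 2 were *NDUFC1*, by 0.51, and *NDUFS6*, by 0.93 (edgeR adjusted p = 0.0227 and 0.0348). The median of the list was -0.24 with all libraries and -0.02 with the length trend removed, where *NDUFC1* did not pass (edgeR adjusted p = 0.493). Between 12 h replicates 1 and 2 the list had a median log2 difference of -1.23, against -0.80 for the ribosomal protein genes. The difference between these replicates widened the estimated spread, so the few calls do not show the list to be unchanged. The cytosolic ribosomal protein genes, at -0.37 and -0.15, lay between these lists, and the difference between lists was not tested.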

How the data were processed

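Gene-level RNA-seq data of 10 libraries of MDA-MB-231 cells were used. Per the labels and the submitters' processing notes, the authors used Trim Galore for trimming, STAR 2.5.2b for alignment (build hg38) and featureCounts for the counts. The strand setting and annotation are not given in the sources used here. The 2 deposited tables, 1 of raw counts and 1 of TPM, hold 36687 gene symbols each. In the deposited TPM each gene was divided by 1 fixed length in all libraries.

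The deposited counts were tested with edgeR 4.0.16 under R 4.3.3 (filter on low counts by group, TMM, 1 robust quasi-likelihood fit over the 5 groups, Benjamini-Hochberg adjustment, threshold 0.05). The standard error is the log2 fold change divided by the square root of F. Lists were described by counts and medians. Coordinates, lengths and exon overlaps came from GENCODE on GRCh38 and start sequences from RefSeq. Trends with length and GC content were fitted over 10475 genes (10254 for coding length).

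The alternatives were no filter, DESeq2 size factors, TMM without the members, DESeq2 1.42.0, the 2 groups alone, a replicate block, limma 3.58.1 on log2(TPM + 1) and log2(TPM + 0.1) with at least 1 TPM in 2 libraries or no filter, each library left out, and removal of the length and GC trend. Those with coding length, without both 12 h libraries, or with the trend removed and 12 h replicate 1 left out were added after seeing the data. Counts of all 10 libraries were simulated (15327 genes), with changes put into the 48 h libraries of genes drawn at random. At 48 h against 0 h edgeR recovered 3.08% of genes changed 1.5-fold, 50% of those changed 2-fold and 78.1% of those changed 4-fold, and called 4 unchanged genes. The changed genes were of any level, unlike the members, and the simulated spread included 12 h replicate 1.

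The members and lists were chosen with earlier results of these data known. Named genes are, in each comparison, up to 3 members per direction with the smallest adjusted p, the 3 highest and lowest in TPM at 0 h, the 2 extremes of fold change at 48 h, genes chosen for their role (*RPL5*, *RPL11*, the stalk, *RPSA*, *RPS6*), *FAU*, paralogs with parents, and 3 per direction of each other list at 48 h. Others, and values at other times, were chosen after their values were seen. Some genes under this rule are not reported here.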

Additional observations from a re-analysis of the deposited data

How the results depend on the processing

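The members' medians kept their direction in every alternative at 6, 24 and 48 h and at 48 h against 6 h. Counts of members called depended on the estimated spread, which the difference between the 2 libraries of 12 h widened for all groups. The share of all genes called moved with it, as given for the comparisons above. The counts below stand without that share, so they compare settings and do not set members against other genes. In simulated data few 1.5-fold changes were recovered with 10 libraries, so a member that did not pass is not shown to be unchanged, and the cause of the changes below was not tested unless fewer samples or a narrower spread is named.

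Members higher and lower than 0 h at 6 h numbered 9 and 1 with no filter, 2 and 0 by DESeq2, 25 and 2 with the 2 groups alone, 26 and 2 without both 12 h libraries, 2 and 0 with the length and GC trend removed (median 0.06) and 1 and 0 with coding length (0.08). With the trend removed and 12 h replicate 1 left out they were 14 and 2 (0.05), or 7 and 1 with coding length (0.07). At 12 h there were 20 lower with no filter and 0 lower with the 2 groups alone or by limma on TPM (with either pseudocount or no filter). With the trend removed 3 were higher and 1 lower, or 2 and 1 with coding length, and with 12 h replicate 1 also left out 4 were higher and 2 lower, or 2 and 2 with coding length.

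At 24 h there were 3 higher and 6 lower with no filter, 5 lower by DESeq2, 7 and 29 with the 2 groups alone, 5 and 29 without both 12 h libraries, and 0 lower by limma on TPM (median -0.05 in its 3 versions). With the trend removed 1 was higher and 12 lower (median -0.13), and 2 higher and 10 lower with coding length. With 12 h replicate 1 also left out they were 7 and 31, or 2 and 35 with coding length. Lower at 48 h were 41 with no filter, 59 with the 2 groups alone, 60 without both 12 h libraries and 11 by limma on TPM with no filter (median -0.30 in its 3 versions). With the trend removed 3 were higher and 14 lower at 48 h (median -0.15), and 1 higher and 29 lower with coding length (-0.21). With 12 h replicate 1 also left out 4 were higher and 32 lower (-0.16), or 2 and 47 with coding length (-0.23). At 48 h against 6 h lower counts were 59 with no filter, 70 with the 2 groups alone and without both 12 h libraries, 38 by DESeq2 and 15 by limma with no filter. With the trend removed 2 were higher and 24 lower (-0.28), or 1 and 34 with coding length (-0.33). With 12 h replicate 1 also left out 4 were higher and 42 lower (-0.28), or 1 higher and 59 lower with coding length (-0.34). As a share of summed TPM the members took 8.14% in the 0 h group, 9.0% in the 6 h, 8.05% in the 24 h and 6.53% in the 48 h group.

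With each library left out in turn, higher and lower members ranged from 0 to 26 and 0 to 2 at 6 h (median 0.13 to 0.21), 0 to 5 and 0 to 73 at 12 h (-0.79 to 0.04), 0 to 5 and 0 to 30 at 24 h (-0.15 to -0.12), 0 to 0 and 1 to 60 at 48 h (-0.44 to -0.34), and 0 to 0 and 4 to 70 at 48 h against 6 h (-0.60 to -0.48). The lone library of a time is then assumed to vary like the other groups. Without 0 h replicate 1, 48 h replicate 1 or 48 h replicate 2 there was 1 lower at 48 h, without 0 h replicate 2 there were 3, and without either 12 h library 60. Shares ranged from 6.62% to 6.62% for 0 h, from 7.34% to 7.41% for 6 h, from 4.20% to 7.10% for 12 h, from 6.35% to 6.72% for 24 h, and from 5.19% to 5.38% for 48 h. The main fit did not pair libraries by replicate number. Correlations of same-numbered libraries' deviations between times ranged from -0.33 to 0.32 over 10 pairs of times. They cannot decide whether same-numbered libraries shared a culture or batch. With the replicate block 18 members were lower at 48 h and 3 at 24 h. DESeq2 size factors and TMM without the members gave the 18 lower genes of 48 h again.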
